A study of Mus musculus with 28 samples.

Results

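Neurons of the mouse hippocampus were sampled from acute brain slices in 2 ways, by TIVA capture (5 libraries) and by pipette (3 libraries), and these 8 of the 28 libraries in the series are compared here. They were chosen by the source name in the labels, which gives region, tissue or culture, and means of collection. TIVA is short for transcriptome in vivo analysis. A photoactivatable tag is taken up by living cells, light opens it in a chosen cell, and the opened tag anneals to the poly(A) tails of that cell's mRNA so that it can be pulled out. All 8 neurons came from C57BL/6 mice aged 8 to 10 days and all RNA was amplified in 3 rounds of in vitro transcription, per the labels' protocols. The slices of the TIVA neurons were exposed to 30 µM tag for 90 min and the tag was opened with a laser at 80% power in the CA1 field. The pipette neurons are labelled as untreated, yet their protocol text speaks of TIVA as well and the titles of all 3 begin with Sample_Tiva_. The labels thus disagree on how these 3 neurons were collected, and the source name was followed throughout.

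The CA1 field is one of the relay stations of the hippocampal circuit, and its main output cells are pyramidal neurons packed in a thin layer and surrounded by interneurons, astrocytes and other glia. A pipette draws up the contents of a soma along with whatever adheres to it. TIVA binds mRNA inside an intact cell, but the labels' protocol has the imaged field around that cell aspirated along with it before the tagged RNA is captured.

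Every library holds 1 cell whose animal is not named. Cells of unknown animals are not replicates, so each group counts as 1 sample, no test was run, and differences are given by size beside the spread over cells. Features carry UCSC known-gene identifiers, and many join several of them in 1 name. Of 55419 identifiers, 0 matched the gene tables used here, so no gene symbol, cell-type marker or sequence could be attached, and the label neuron was not checked against marker genes. Reads assigned to features numbered 24.1 to 33.4 M (the scale of CPM) in the TIVA libraries and 6.64 to 11.6 M in the pipette libraries. The depths of the groups did not overlap, so depth and means of collection cannot be told apart. Thinning to equal depth, where used, evens out the number of assigned reads and nothing else that may go with depth. Reads outside any feature made up 15.8% to 39.2% of counted reads by TIVA and 15.8% to 30.3% by pipette. Ambiguous reads made up 1.87% to 2.54% by TIVA and 2.88% to 3.50% by pipette, with no overlap.

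Most features differed little between both kinds of neuron on the scale used here, and few parted them without overlap. Levels are given in CPM (counts-per-million reads assigned to features), and differences as TIVA minus pipette means of log2(CPM + 10), a scale that understates the change of low features. Of 28661 features, 9564 had a mean of 5 CPM or more over the 8 neurons and are called measured. The difference was smaller than 1 in either direction, 2-fold on that scale, for 6628 of them, 69.3%. The added 10 CPM makes this easier for low features: 83.0% passed at a mean of 5 to 20 CPM, against 60.2% to 71.5% at higher mean levels. For 8817 features, 92.2%, the range over TIVA neurons overlapped the range over pipette neurons. Every TIVA neuron lay above every pipette neuron in 539 features, 5.64% of those measured, and every pipette neuron lay above every TIVA neuron in 208, 2.17%.

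A difference of 4-fold or more with no overlap was found in 164 features higher in TIVA, 1.71% of those measured, and in 52 higher in pipette, 0.544%. The balance between these counts depended on scaling. The median difference over all measured features was 0.31 with scaling to the library total, and it was 0.04 with DESeq2 size factors, under which 85 features were higher in TIVA and 135 in pipette. With TMM scaling the median was 0.24 and the counts were 144 and 73. Higher-in-TIVA features made up 75.9% of those past the limit by library total, 66.4% with TMM and 38.6% with DESeq2 scaling, so the majority changed sides. At equal depth, with every library thinned to 6.64 M reads, the counts were 159 and 57. With 1 cell fewer, ranges part more easily: without the second or the third pipette neuron the features higher in TIVA numbered 260 and 342. Those higher in pipette numbered 166, 155 and 151 without the first, second or the third pipette neuron, and 87 without the third TIVA neuron. The titles of the first 2 TIVA neurons begin with Sample_Tiva_ too, and those of the other 3 do not. The counts were 611 and 217 with those 2 TIVA neurons alone, and 304 and 104 with the other 3.

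**Figure D1:**
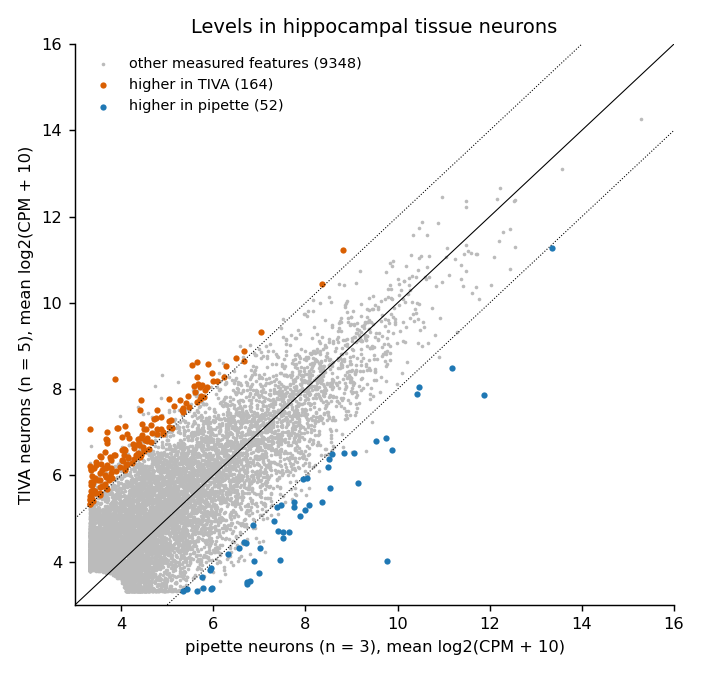
Mean level of each of 9564 measured features in pipette neurons (x axis) and TIVA neurons (y axis) of hippocampal tissue, both as log2(CPM + 10); the solid line marks equality and the dotted lines 4-fold differences. The 164 features higher in TIVA (orange) sit mostly at low pipette levels, and the 52 higher in pipette (blue) reach to higher levels.

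The 164 features higher in TIVA had a median level of 102 CPM in TIVA neurons and 10.2 CPM in pipette neurons, against 37.3 and 27.9 CPM over all measured features. At least 1 pipette neuron was below 1 CPM in 80 of them (48.8%), near the share among all measured features (47.6%), and all 3 were in 26 (15.9%), against 7.54%. In single pipette neurons 34.8%, 34.8% and 23.8% of the 164 were below 1 CPM, against 29.1%, 30.2% and 20.4% of all measured features. The groups parted these features by choice, so the shares describe them and are no further evidence. The 52 features higher in pipette had a median level of 199 CPM in pipette neurons and 35.9 CPM in TIVA neurons, and 29 of them (55.8%) were below 1 CPM in at least 1 TIVA neuron, near the 51.2% of all measured features. In single TIVA neurons 9.62% to 36.5% of the 52 were below 1 CPM, against 14.0% to 28.9% of all measured features.

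Differences of this size toward TIVA were most frequent between 50 and 200 CPM, and those toward pipette took a larger share of the features at each higher level. Features with a mean of 5 to 20 CPM gave 0 higher in TIVA and 3 higher in pipette among 3164, where the pseudocount of 10 CPM limits the difference that can be seen. Between 50 and 200 CPM, 99 of 2803 features (3.53%) were higher in TIVA and 23 (0.821%) in pipette. Above 1000 CPM, 2 of 103 features were higher in TIVA (1.94%) and 3 in pipette (2.91%). The share of features without overlap, of any size of difference, rose with level. It was 5.78% at 5 to 20 CPM, 6.89% at 20 to 50, 8.70% at 50 to 200, 12.7% at 200 to 1000 and 24.3% above 1000 CPM. The spread over cells was smaller above 1000 CPM, with a median SD of 0.50 (log2) in both groups. Between 50 and 200 CPM it was 1.12 in TIVA and 1.09 in pipette neurons. Features that join several identifiers made up 72.6% of those higher in TIVA, 69.2% of those higher in pipette and 68.1% of all measured features.

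The features described singly are the first 2 in each direction, by size of difference, among those with a mean of 20 CPM or more and at least 10 reads per library in the higher group and with no overlap. Those conditions were met by 435 features on the TIVA side (4.55% of those measured) and 185 on the pipette side (1.93%). The feature with the widest difference toward TIVA was uc009akh.2. It was at 336, 542, 126, 299 and 293 CPM in the 5 TIVA neurons and at 0.383, 3.61 and 11.8 CPM in the 3 pipette neurons. The lowest TIVA value, that of the third cell, was 10.7-fold above the highest pipette value. The difference in mean log2(CPM + 10) was 4.37, with an SD over cells of 0.73 in TIVA and 0.54 in pipette neurons. Over summed counts it was at 313 CPM by TIVA (310.3 to 316, an exact Poisson 95% interval, which covers counting error only) and 6.28 CPM by pipette (5.36 to 7.32). In other hippocampal libraries it was at 57.3 to 228 CPM in bulk hippocampus and at 39.2 to 332 CPM in cultured hippocampal TIVA neurons. Cultured hippocampal pipette neurons held 99.8 to 231 CPM. Of the 2 TIVA neurons from cortical tissue, 1 held 162 CPM and the other 2 reads (0.253 CPM), as low as the hippocampal pipette neurons.

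The next, uc008xar.1:uc008xas.2:uc012dur.1:uc012duq.1, was close to an on-off difference. Its levels were 179, 344, 58.7, 123 and 63.8 CPM in the TIVA neurons. Of the pipette neurons, the second had 1 read (0.151 CPM) and the other 2 had 0 reads, which allows up to 0.383 and 0.258 CPM (3 reads of each library). The difference was 3.75 on the log2(CPM + 10) scale, with an SD of 0.98 over TIVA neurons. The ratio of summed counts was 3974, with an exact counting interval of 713 to 156981 that reflects the single pipette read. Bulk hippocampus held 27.6 to 41.1 CPM and cultured hippocampal pipette neurons 9.63 to 23.8 CPM. Both lay below every TIVA and above every pipette neuron of hippocampal tissue. The 2 TIVA neurons from cortical tissue were low as well, at 0 reads (up to 0.380 CPM) and 1.13 CPM.

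In the other direction, uc009sgc.1:uc009sgd.1 had the widest difference of all, at −5.75 on the same scale. It was at 438, 1321 and 1114 CPM in the pipette neurons and at 0.121, 8.62, 1.41, 41.2 and 0.377 CPM in the TIVA neurons. The lowest pipette value was 10.6-fold above the highest TIVA value, that of the fourth cell. The SD was 0.85 (log2) over pipette and 0.99 over TIVA neurons. Summed counts gave 964 CPM by pipette (952 to 976) and 9.47 CPM by TIVA (8.96 to 10.00), a ratio of 102 (96.3 to 108). Bulk hippocampus varied widely, at 4521, 282 and 414 CPM. Cultured hippocampal neurons showed no such separation, with 126 to 478 CPM by TIVA and 86.8 to 259 CPM by pipette. The TIVA neurons from cortical tissue held 2.66 and 2.83 CPM.

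The feature uc009vev.1 was abundant in pipette neurons, at 3888, 4741 and 2808 CPM, and lower in every TIVA neuron, at 162, 137, 375, 353 and 186 CPM. The difference was −4.00, with an SD of 0.64 over TIVA and 0.38 over pipette neurons. Summed counts gave a ratio of 14.7 (14.5 to 14.9). In cultured hippocampal neurons the order was opposite, with 16279 to 27558 CPM by TIVA and 34.6 to 485 CPM by pipette. The TIVA neurons from cortical tissue held 3324 and 396 CPM. It is 1 of 8 features with neighbouring identifier numbers, uc009vev.1 to uc009vfc.1. In 6 of these 8 every pipette neuron lay above every TIVA neuron, against 2.17% of all measured features. The 6 include uc009vev.1, which was chosen for this, and uc009vfa.1, which was low at 2.95 to 7.92 CPM by TIVA and 8.04 to 19.0 CPM by pipette. Together the 8 held 2.19% to 4.29% of reads by pipette and 0.280% to 1.56% by TIVA.

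**Figure D2:**
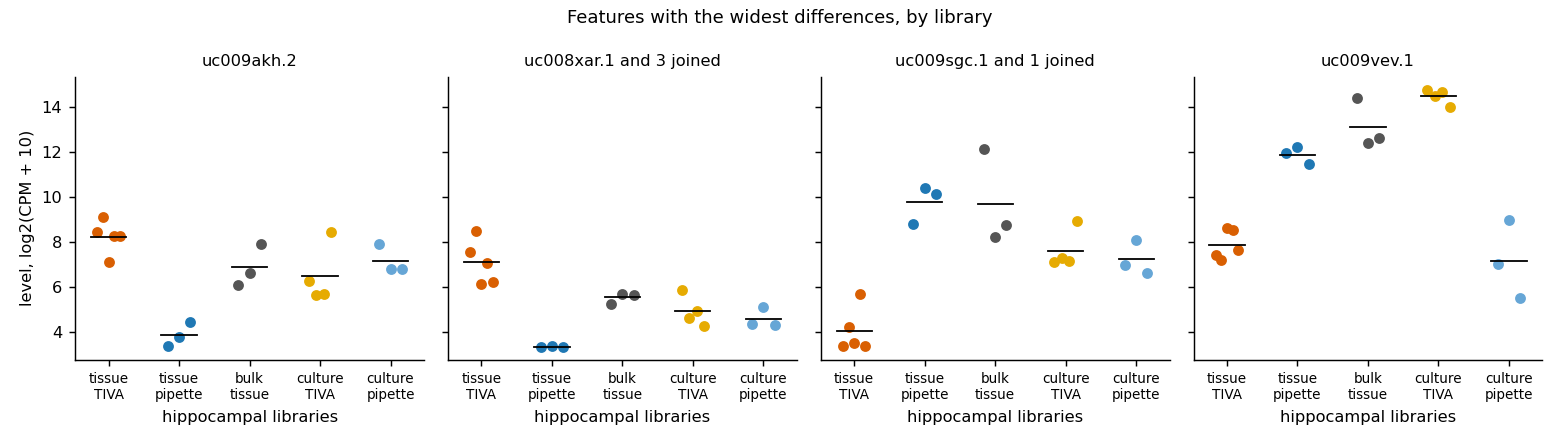
Level in each hippocampal library, as log2(CPM + 10), of the 2 features with the widest differences in each direction between tissue TIVA and tissue pipette neurons; each point is 1 library and the bars are group means. In the first 2 panels tissue pipette neurons are the lowest group, in the third tissue TIVA neurons are, and in the fourth tissue TIVA neurons lie below tissue pipette, bulk and cultured TIVA libraries.

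At 8-fold or more, 12 features were higher in TIVA and 9 in pipette. The 12 had TIVA levels of 28.6 to 763 CPM over all cells, and 9 of them were below 1 CPM in at least 1 pipette neuron, against 47.6% of all measured features. Their mean in pipette neurons, for which they were chosen, lay below the mean of bulk hippocampus in 12 of 12, against 59.3% of all measured features. Their mean in TIVA neurons lay above that of bulk in 11 of the 12. The 9 had pipette levels of 28.9 to 4741 CPM, and 6 of them were below 1 CPM in at least 1 TIVA neuron, against 51.2%. Their mean in TIVA neurons lay below that of bulk hippocampus in 9 of 9, against 43.8%, again on the side that chose them. Their mean in pipette neurons lay above that of bulk in 7 of the 9. Levels in both groups chose these features, so all these counts, those below 1 CPM included, only describe them.

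Bulk hippocampus, which did not enter the choice of these features, gave a reference level. It came from mice aged 8 to 10 days, the age range of the 8 neurons. Bulk tissue pools all cell types of the region, so the share of cells that hold a transcript and the amount per cell cannot be told apart in bulk hippocampus. Its median level over all measured features was 34.9 CPM. The median bulk level of the 164 features higher in TIVA was 54.6 CPM, between those of TIVA neurons (102 CPM) and pipette neurons (10.2 CPM). All 3 pipette neurons lay below all 3 bulk libraries in 118 of the 164 (72.0%), against 25.5% of all measured features. All 5 TIVA neurons lay above all bulk libraries in 38 of them (23.2%), against 3.08%. The 52 features higher in pipette had a median bulk level of 80.9 CPM, and all 3 pipette neurons lay above bulk in 32 of them (61.5%), against 4.78% of all measured features. All 5 TIVA neurons lay below bulk in 20 of the 52 (38.5%), against 7.05%. The single-neuron side of each count chose the features, so these counts describe where each group lay and are not independent support.

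The same contrast in culture, made on other cells, showed these features on the same side no more often, or little more often, than all measured features. In cultured hippocampus, 1 of the 164 was higher in TIVA by 2-fold or more with no overlap, against 1.79% of all measured features, and 41 (25.0%) were higher in pipette, against 18.2%. The median difference of the 164 was −0.64 there and −0.43 over all measured features. In cultured cortex 2 of the 164 were higher in TIVA, against 2.95%, and 12 (7.32%) in pipette, against 6.80%. Of the 52 features higher in pipette, 9 (17.3%) were higher in pipette in cultured hippocampus and 5 (9.62%) in cultured cortex, shares near those of all measured features. Another 4 of the 52 (7.69%) in cultured hippocampus and 3 (5.77%) in cultured cortex were higher in TIVA, against 1.79% and 2.95%. The median difference of the 52 was −0.35 in cultured hippocampus and −0.04 in cultured cortex, against −0.43 and −0.09 over all measured features. Dose, loading time and laser power of the tag were all lower in culture than the 30 µM, 90 min and 80% used in tissue. For cultured neurons the labels give days in culture and no mouse age. Tissue and culture thus differ in more than the cells' surroundings.

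**Figure D3:**
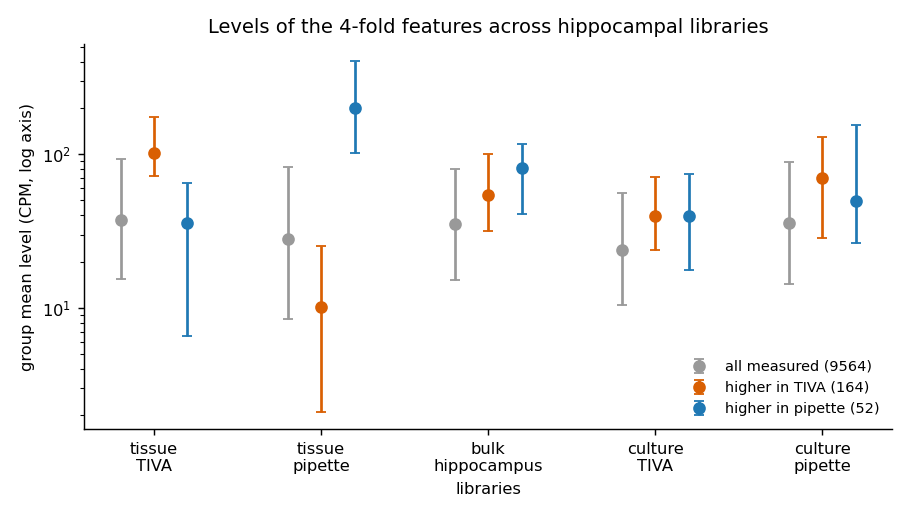
Group mean level (CPM, log axis) of all measured features, the 164 higher in TIVA and the 52 higher in pipette in 5 kinds of hippocampal library; points are medians over features and bars run from the lower to the upper quartile. The 2 sets part in the tissue neurons that chose them, and their quartile ranges overlap in bulk tissue (medians 54.6 and 80.9 CPM) and in cultured neurons.

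At equal depth the numbers of features held by TIVA and pipette neurons overlapped, with the higher median by TIVA. With every library thinned to 6.64 M reads and a feature counted from 1 read, the TIVA neurons held 10601, 9993, 10903, 9580 and 9141 features and the pipette neurons 9298, 9472 and 9991. The ranges overlapped, and the difference of medians, 521, was below the SD of 721 over TIVA neurons. It rested on single cells, at 261.5 without the first pipette neuron, 314.5 without the first or the third TIVA neuron and 825, above that SD, without the fourth or the fifth. Without thinning it was 1616. Counted from 5 reads at equal depth, the difference of medians was 872, against an SD of 881 over TIVA neurons, and the ranges overlapped. At 10 CPM or more it was 747, above the SD of 651 over TIVA neurons, and the ranges overlapped as well. At 50 CPM or more the groups did not overlap, with 3699 to 3887 features by TIVA and 3191 to 3269 by pipette. The 50 most abundant features took 16.0% to 19.3% of the reads of a TIVA library and 21.6% to 24.2% of a pipette library, again with no overlap. The most abundant feature of a library held 1.69% to 2.62% of reads by TIVA and 2.86% to 5.19% by pipette.

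Of 14532 features found in any of the 8 neurons at equal depth, 5606 (38.6%) were found in all 8 and 2069 (14.2%) in a single cell. The 5606 carried 89.3% to 92.0% of the reads of each library. Presence that followed the means of collection was infrequent. There were 49 features found in every TIVA and no pipette neuron, with means of up to 55.3 CPM in TIVA neurons, 10 CPM or more in 27 of them. At full depth 43 of the 49 were at 0 reads in all pipette libraries, and 47 had a mean of 1 CPM or more in bulk hippocampus. In the other direction 31 features were found in every pipette and no TIVA neuron, with means of up to 66.5 CPM in pipette neurons, 10 CPM or more in 17 of them. At full depth 16 of the 31 were at 0 reads in all TIVA libraries, and 27 had a mean of 1 CPM or more in bulk hippocampus. The thinned depth is the full depth of the second pipette library, and thinning took far more reads from the TIVA libraries. Staying at 0 at full depth was thus nearly given for the 49, and the 43 and the 16 are not comparable. A count of 0 at the thinned depth allows up to 0.452 CPM (3 reads). The groups differ in size, so the counts of 49 and 31 are not directly comparable either. Both depended on single cells. The 49 became 97, 113 and 130 without the first, second or the third pipette neuron, and 76 and 94 without the second or the fifth TIVA neuron. The 31 became 83, 64 and 69 without the first, second or the third pipette neuron, and 57 without the third TIVA neuron.

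**Figure D4:**
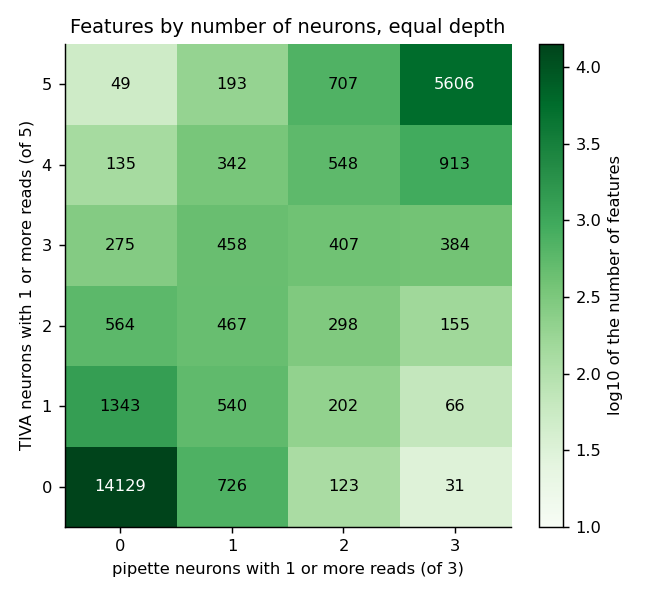
Number of features (printed in each square, shaded on a log10 scale) by how many of 3 pipette neurons (x axis) and how many of 5 TIVA neurons (y axis) held 1 or more reads, with all libraries thinned to 6.64 M reads. Most features lie in the corners found in all 8 neurons (5606) or in none (14129), and the corners found in a single group hold 49 and 31.

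A common set of abundant features was present by both means of collection. At 50 CPM or more in every cell there were 1482 features in TIVA neurons, 1556 in pipette neurons and 1007 in all 8, and the last took 52.6% to 60.6% of the reads of each library. Of the 1007, 831 (82.5%) differed by less than 2-fold, 124 had no overlap between the groups and 10 were past the 4-fold limit. Of all 9564 measured features, 69.3% differed by less than 2-fold, 747 had no overlap and 216 were past the limit. As a share, features without overlap were thus more frequent among the 1007 than among all measured features, and those past the limit were less frequent. The floor of 50 CPM in every cell leaves out features that fall low in any cell, so these counts describe the 1007 only. The median difference of the 1007 was 0.04. Of the 1482 in TIVA neurons, 46 (3.10%) were below 1 CPM in at least 1 pipette neuron, and 1 in all 3. Of the 1556 in pipette neurons, 109 (7.01%) were below 1 CPM in at least 1 of the 5 TIVA neurons, and 0 in all 5. A larger group gives more chances for such a cell, so these shares are not directly comparable. Of the 50 most abundant features of each library, 11 were shared by all 8. A pair of TIVA neurons shared a median of 32.5, a pair of pipette neurons 35 and a pair of unlike neurons 29, with ranges of 27 to 39, 31 to 37 and 22 to 34.

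Neurons collected in the same way were slightly more alike than neurons collected differently, and the ranges overlapped. Over the 9564 measured features, Pearson's r between levels, as log2(CPM + 10), had a median of 0.620 between TIVA neurons (0.527 to 0.699, 10 pairs), 0.619 between pipette neurons (0.574 to 0.651, 3 pairs) and 0.573 between the groups (0.508 to 0.703, 15 pairs). Such an r is across features, and features are no independent replicates. The mean of both within-group medians exceeded the between-group median by 0.0465, and by 0.0457 at equal depth, against an SD of 0.0523 over pairs of TIVA neurons. Among features at 50 CPM or more in either cell of a pair, a median of 30.5% were 4-fold or more apart between TIVA neurons (19.9% to 42.5%), 38.4% between pipette neurons (34.8% to 43.9%) and 39.0% between the groups (23.6% to 47.3%). The 3 ranges overlapped, so a single pair of cells did not show by this share whether it had been collected in the same way.

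The third TIVA neuron stood nearest to the others. It was the best match of 3 of the other 4 TIVA neurons and of 2 of the 3 pipette neurons, and its own best match was the third pipette neuron, at r = 0.703. It also held the most features at equal depth (10903) and the most reads (33.4 M), and it had the highest correlation with the mean of bulk hippocampus, at 0.797 against 0.629 to 0.715 in the other TIVA neurons. Among pipette neurons the third had the highest value with bulk tissue as well, at 0.747 against 0.663 and 0.689, and again the most features and reads of its group. The part of detection in these similarities was not tested.

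**Figure D5:**
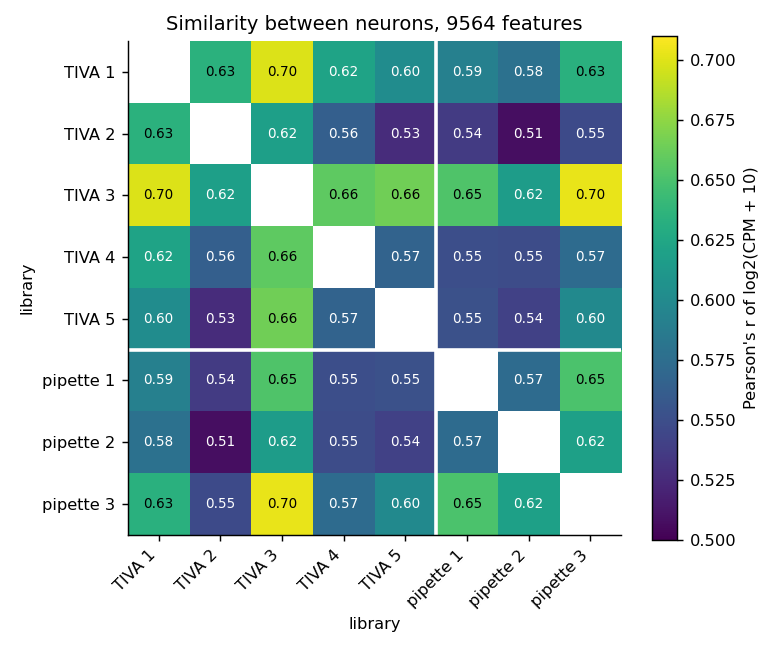
Pearson's r of log2(CPM + 10) over 9564 features for each pair of the 8 hippocampal tissue neurons; white lines part the 5 TIVA from the 3 pipette neurons. The highest value, 0.703, joins the third TIVA and the third pipette neuron, and the lowest, 0.508, the second TIVA and the second pipette neuron.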

How the data were processed

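The authors deposited raw read counts per feature, 1 file per library, and no normalized values. The submitters' processing notes list CASAVA 1.8.1, the mouse build mm9 and HTSeq, whose version is not stated. Neither aligner, counting mode nor strand setting is given there, so near-identical copies and overlapping or antisense features cannot be told apart. Library totals exclude the 5 HTSeq summary lines. They held 17.8% to 41.0% of the reads in the files of the 8 libraries.

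Counts were scaled to CPM. The functions that scale counts and pick features were run on simulated counts with known fold changes, as a check of the code only. Thinning drew reads without replacement down to the smallest of the 8 totals, with a fixed seed. TMM factors came from edgeR 4.0.16 and size factors from DESeq2 1.42.0, used for scaling only, with no test. Intervals are exact Poisson or binomial ones at 95%, and with reads that carry no molecular identifiers they cover counting error only. Replicate numbers are in record order and do not pair cells. No pair of libraries in a group agreed within sampling noise (chi-square per degree of freedom 399 to 1419), so none was merged. Named features were the first 2 in each direction by the difference in mean log2(CPM + 10) among those whose higher group had a mean of at least 20 CPM and no library under 10 reads, with no overlap. Of the lists of cell-type markers none could be used, for want of symbols. The comparison and the rules were chosen with earlier results of these data known. Analyses ran in Python 3.11.15 with numpy 2.4.6, pandas 2.3.3 and scipy 1.17.1.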

Additional observations from a re-analysis of the deposited data

Results flagged for a closer look

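In each of 19 measures the 5 TIVA neurons were searched for a cell far from the rest, and 2 measures held one. Chance gives about 1 in 20. The share of ambiguous reads was highest in the fifth TIVA neuron, at 2.54%, and the gap to the next cell was 0.753 of the group's range. The level of uc009sgc.1:uc009sgd.1 was highest in the fourth TIVA neuron, at 41.2 CPM, with a gap of 0.793 of the range, and still below every pipette neuron.

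The feature uc009vev.1 was lower in every TIVA than in every pipette neuron of hippocampal tissue (difference −4.00 in mean log2(CPM + 10)), and the order was opposite with no overlap in cultured hippocampal neurons (7.32) and in cultured cortical neurons (3.25). The difference between tissue and culture was not tested.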

How the results depend on the processing

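The features higher in TIVA by 4-fold or more (164) and those higher in pipette (52) numbered 85 and 135 with DESeq2 size factors, 394 and 127 with a pseudocount of 1 CPM, 460 and 179 at 2-fold and 12 and 9 at 8-fold. With the 2 TIVA neurons whose titles begin Sample_Tiva_ they numbered 611 and 217, and with the other 3 TIVA neurons 304 and 104. The 143 features higher in TIVA under both library-total and TMM scaling were 87.2% of the 164, and DESeq2 scaling kept 51.8%. All 52 features higher in pipette remained so under each of the 3 other scalings (TMM, DESeq2 and CPM outside the 50 most abundant features). Each of the 3 moved the median difference toward pipette, to 0.24, 0.04 and 0.28 from 0.31. Keeping the 52 was thus nearly given and does not make them firmer than the features higher in TIVA. Leaving out 1 library gave 194 to 342 features higher in TIVA and 69 to 166 higher in pipette. It gave a median difference of 0.27 to 0.41, a difference in median features detected of 261.5 to 825, and 65 to 130 and 37 to 83 features found in every cell of TIVA or pipette alone. It gave correlation gaps of 0.0378 to 0.0550 and a difference in the share of the 50 most abundant features of −5.44 to −4.13 percentage points.

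The median difference over measured features was 0.039 with DESeq2 size factors and 0.06 with no filter beyond 1 read. The difference in median features detected was 1616 without thinning. Features found in every TIVA and no pipette neuron numbered 13 when 5 or more reads counted as present and 0 as absent, and 118 without thinning, and those found in every pipette and no TIVA neuron 3 and 19. With fewer than 5 reads counted as absent, a setting added after seeing the data, they numbered 60 and 16. With 10 in place of 50 features, the difference in the share of the most abundant ones was −2.44 percentage points. The median bulk level of the features higher in TIVA was 44.8 CPM when they were chosen at 2-fold, also added after seeing the data. The 4 named features kept their direction in all 52 alternatives run on them. They were chosen for wide differences with no overlap in these same libraries, so the outcome was nearly given and is no further evidence. No paired analysis was possible because the labels give these neurons no shared replicate numbers. Pipette depth limits what can be called absent to between 0.258 and 0.452 CPM.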
